A study of Mus musculus with 7 samples.

Results

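A set of 8 genes of neuronal adhesion, axon structure and neurotrophin signalling was followed at 1 CpG probe each: Ncam1, L1cam, Pcdh11x, Adam23, Reln, Gap43, Bdnf and Spnb4 (now Sptbn4). They were taken by gene symbol from the 382 probes of a custom Illumina GoldenGate methylation array, which reports at each probed CpG the fraction of methylated DNA as a beta value from 0 to 1. All DNA was from C57BL/6 mice. There are 2 arrays with the tissue label brain, 1 titled A2B5_mas, after a surface ganglioside of glial progenitors, and 1 titled PSA-NCAM_mas, after polysialylated NCAM, which marks migrating neuroblasts. The other 5 arrays carry the tissue label DNA and the titles Met_0, Met_25, Met_50, Met_75 and Met_100, whose numbers were read as the nominal percent methylation of control DNA. The labels give no age, sex, genotype, brain region, cell isolation, number of animals or source of the control DNA, and the ending of the brain titles is not explained. Each title stands for 1 array, so a difference between titles has no replicate check and no p-value.

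DNA methylation adds a methyl group to cytosine, in mammals mostly where a G follows it (a CpG). CpG-rich promoters are usually unmethylated in normal tissue, and dense methylation there goes with silenced transcription, whereas most CpGs elsewhere in the genome are methylated. Several of the genes work at the surface of growing axons. Ncam1 and L1cam are adhesion molecules of the immunoglobulin superfamily, and Ncam1 is the main carrier of the polysialic acid that gives PSA-NCAM its name. Pcdh11x is an X-linked protocadherin and Adam23 a catalytically inactive member of the ADAM family that binds the secreted protein Lgi1. Reln is the secreted glycoprotein reelin, which guides neuronal layering, Gap43 is a growth cone protein, Bdnf a neurotrophin with several alternative promoters, and Spnb4 is beta-IV spectrin, which anchors channels in the membrane skeleton of the axon initial segment.

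The position of the measured CpG in each gene is not stated, so the probes could not be placed in a promoter, exon or intron. To show the CpG setting in which these genes start, promoter windows of 300 bases (250 before and 50 after a start) were taken from RefSeq on the build GRCm38.p6, where 5 of the 8 genes had one. The stretches below are the parts of the most upstream windows that lie ahead of the annotated gene, read 5′ to 3′ on the gene's strand, with every CpG (the letters CG, the same on both strands) in capitals. Reln (chr5:22344706-22344955, minus strand), Bdnf (chr2:109674450-109674699, plus strand) and L1cam (chrX:73880839-73881084, minus strand) are shown: the starts of Bdnf and L1cam because these genes passed the limit used below against the control array Met_0, in opposite directions, and that of Reln because it was the densest in CpGs of the 5.
Reln: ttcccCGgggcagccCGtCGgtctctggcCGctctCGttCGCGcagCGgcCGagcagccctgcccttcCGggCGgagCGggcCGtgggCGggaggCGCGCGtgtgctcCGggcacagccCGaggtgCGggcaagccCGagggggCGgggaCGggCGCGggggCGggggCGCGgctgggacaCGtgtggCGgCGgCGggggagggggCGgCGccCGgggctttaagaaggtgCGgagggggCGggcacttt
Bdnf: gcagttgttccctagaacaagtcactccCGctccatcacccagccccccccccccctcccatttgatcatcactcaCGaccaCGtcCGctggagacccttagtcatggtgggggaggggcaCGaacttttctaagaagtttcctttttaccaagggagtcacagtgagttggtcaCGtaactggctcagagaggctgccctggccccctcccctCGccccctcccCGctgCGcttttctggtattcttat
L1cam: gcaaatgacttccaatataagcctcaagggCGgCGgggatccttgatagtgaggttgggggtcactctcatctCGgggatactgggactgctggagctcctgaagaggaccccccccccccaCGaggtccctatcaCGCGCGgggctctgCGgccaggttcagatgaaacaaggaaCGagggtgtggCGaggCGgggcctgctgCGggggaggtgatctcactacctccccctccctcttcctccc
These stretches held 37 CpGs in Reln, 9 in Bdnf and 12 in L1cam. Over the full window, Reln had 47 CpGs, and 1.44% of all 32851 RefSeq windows had as many or more. The first window of Sptbn4 had 41 (3.46% of windows with as many), that of Adam23 31 (10.6%), that of L1cam 22 (23.1%) and that of Bdnf 11 (41.4%), against a median of 7 over all windows. At least 1 CpG was present in 94.6% of all windows. Sptbn4 had 4 windows with 1 to 41 CpGs and Bdnf 7 with 2 to 13, so the count depends on which start is taken. Of the 284 array probes whose gene had a window, the 146 with at least 16 CpGs in the most upstream one had a median brain beta value of 0.0747, and the 138 with fewer had 0.170. These medians describe genes, which are not replicates, and the probed CpG need not lie in the window.

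The brain arrays were read first, gene by gene, beside the Met arrays. Among the adhesion genes, Ncam1 read 0.0741 in A2B5_mas, 0.0791 in PSA-NCAM_mas and 0.0676 in Met_0, and from Met_25 to Met_100 its beta values were 0.445, 0.608, 0.711 and 0.859. Both brain arrays thus sat at the level of Met_0, and the array titled after the polysialylated form of the Ncam1 protein was 0.00507 above the other. L1cam had 0.294 (A2B5_mas) and 0.299 (PSA-NCAM_mas) in the brain arrays, and 0.0838, 0.453, 0.529, 0.582 and 0.834 from Met_0 to Met_100. Both brain values lay between Met_0 and Met_25. Pcdh11x, on the X chromosome like L1cam, had 0.103 in A2B5_mas but 0.0758 in PSA-NCAM_mas, with 0.107, 0.582, 0.607, 0.641 and 0.735 from Met_0 to Met_100. Both brain values were slightly under Met_0, and so under every Met array, and the X-linked genes of the set did not share a level. Adam23 had 0.0582 and 0.0596 in the brain arrays, and 0.182, 0.810, 0.806, 0.812 and 0.833 along the Met series. Both brain values were under every Met array.

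At Reln, A2B5_mas gave 0.153 and PSA-NCAM_mas 0.140, and the Met series gave 0.341, 0.628, 0.728, 0.703 and 0.780 from Met_0 to Met_100. Gap43 had 0.25 and 0.228 in the brain arrays, with 0.393, 0.357, 0.411, 0.473 and 0.556 along the Met series. At both genes the brain arrays were under all 5 Met arrays, and Gap43 spanned the narrowest Met range of the set, 0.199 from its lowest to its highest array. At Bdnf, A2B5_mas gave 0.0622 and PSA-NCAM_mas 0.0472, while the Met series began at 0.441 and went on with 0.783, 0.738, 0.814 and 0.865. It had the highest Met_0 value of the set and some of its lowest brain values. Spnb4 had 0.294 in A2B5_mas but 0.390 in PSA-NCAM_mas, with 0.122, 0.877, 0.911, 0.920 and 0.957 along the Met series. Its brain values lay between Met_0 and Met_25, and it was the only one of the 8 whose brain arrays were over 0.05 apart.

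**Figure D1:**
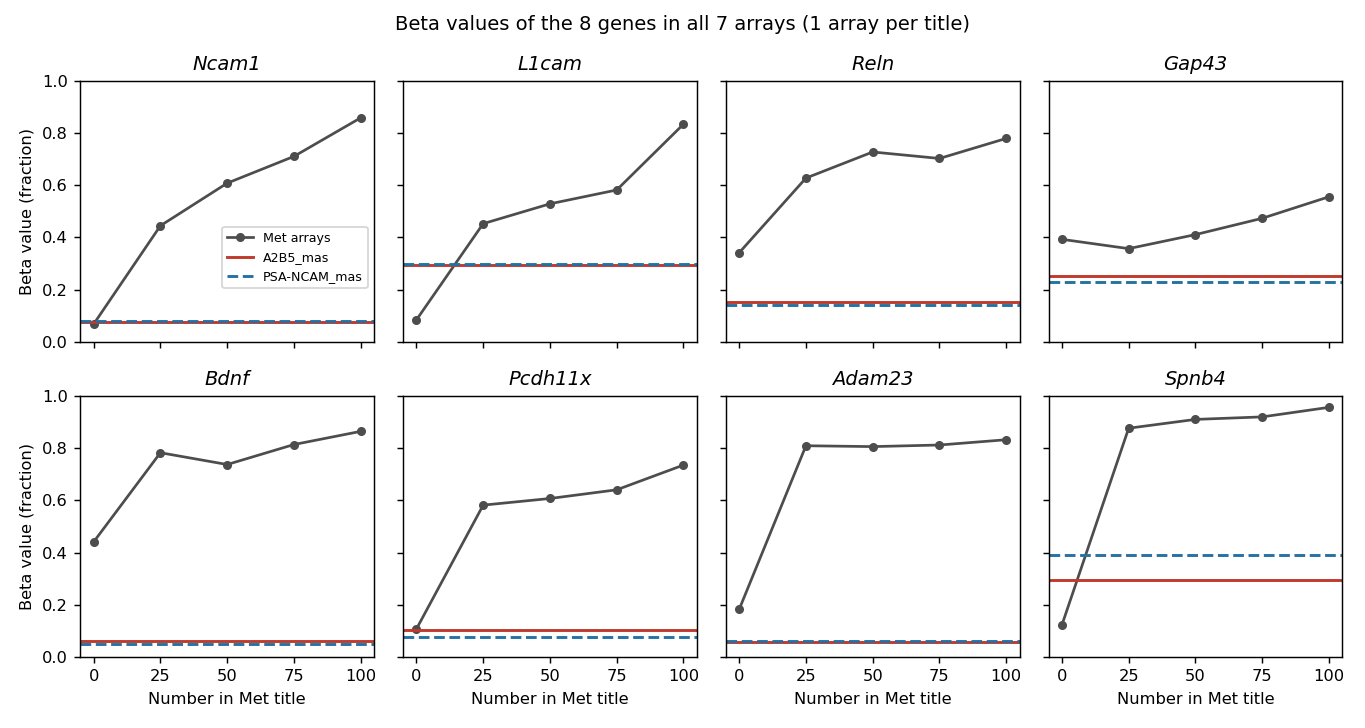
Beta value (vertical axis, fraction methylated) of each gene against the number in the Met title (horizontal axis), with points for the 5 Met arrays and horizontal lines for A2B5_mas (solid) and PSA-NCAM_mas (dashed), 1 array each. The brain lines lie on Met_0 for Ncam1, below every Met array for Reln, Gap43, Bdnf, Pcdh11x and Adam23, and between Met_0 and Met_25 for L1cam and Spnb4, where those of Spnb4 stand apart at 0.294 and 0.390.

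Low methylation, a beta value under 0.2 in both brain arrays, was found at 5 of the 8 genes (Ncam1, Reln, Bdnf, Pcdh11x and Adam23), a share of 62.5% beside 66% of all 382 probes. L1cam, Gap43 and Spnb4 had intermediate values, from 0.228 to 0.390. Within the array, 75.1% of probes were lower than Spnb4 in A2B5_mas and 81.2% in PSA-NCAM_mas, whereas 24.6% and 6.02% were lower than Bdnf. The median of the 8 genes was 0.128 in A2B5_mas and 0.110 in PSA-NCAM_mas, beside 0.101 and 0.0970 over all probes. Probes differ in how their beta value responds to methylated DNA, so levels of different genes were set in order only within the array and not as amounts of methylation.

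The comparison with Met_0 asks how the brain DNA stood against the array nominally without methylation. Both brain arrays were lower than Met_0 at Reln, Gap43, Bdnf, Pcdh11x and Adam23 (5 of 8, with 58.1% of all probes below Met_0 in both). They were higher at Ncam1, L1cam and Spnb4 (3 of 8, with 37.7% of all probes above Met_0 in both). Some of these differences were small. Pcdh11x was lower by 0.00333 in A2B5_mas and 0.0307 in PSA-NCAM_mas, and Ncam1 was higher by 0.00648 and 0.0115. By at least 0.2 in both arrays, only Bdnf was lower, by 0.378 in A2B5_mas and 0.394 in PSA-NCAM_mas, where 6.81% of all probes met this rule. Its Met_0 value was 7.08 and 9.35 times the brain values. Reln fell just outside the rule, at 0.188 and 0.201 under Met_0, and Gap43 was 0.143 and 0.165 under it. In the other direction only L1cam met the rule, 0.210 higher in A2B5_mas and 0.215 higher in PSA-NCAM_mas, beside 14.9% of all probes. That call was lost after quantile normalization of the 7 arrays. Spnb4 was 0.172 and 0.268 higher and missed the rule in A2B5_mas. The single genes that passed are close to the background shares, and 92.1% of probes had a lower Met_0 value than Bdnf.

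On the scale of each probe's own Met curve, made monotone and read between its points, Reln, Gap43, Bdnf, Pcdh11x and Adam23 stood at 0 percent in both brain arrays, since all their brain values were under the first point. Ncam1 stood at 0.429 and 0.765 percent. L1cam stood at 14.2 and 14.6 percent and Spnb4 at 5.71 and 8.87 percent. L1cam thus read higher than Spnb4 on this scale, although its beta value was the lower of the pair in PSA-NCAM_mas.

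**Figure D2:**
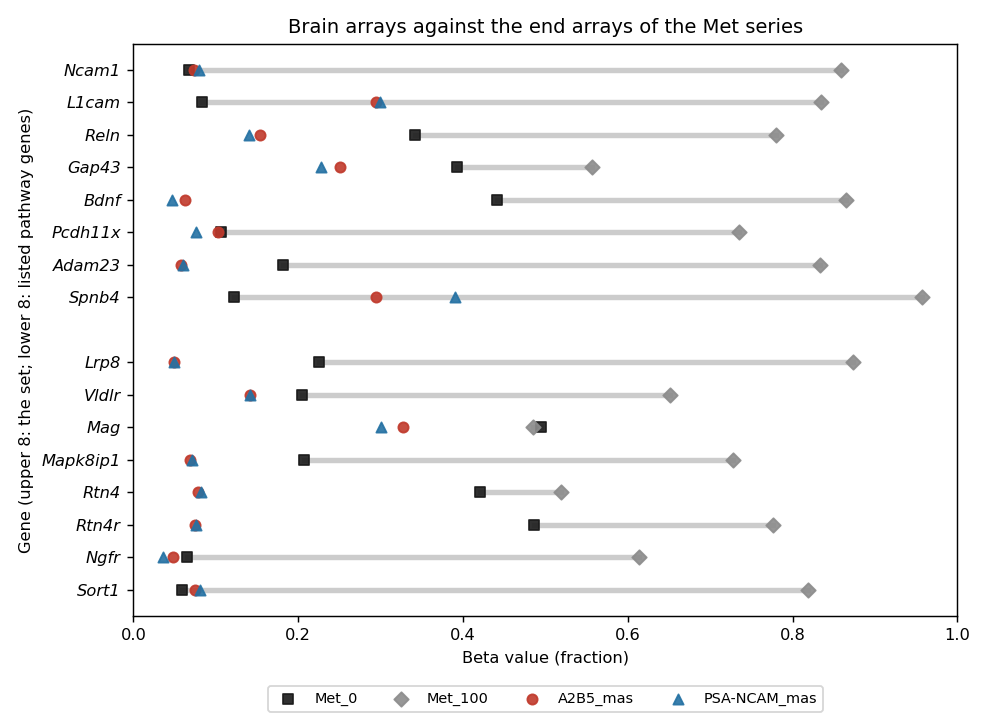
Beta value (horizontal axis) of the 8 genes and of 8 further genes of the same pathways (vertical axis), with squares for Met_0, diamonds for Met_100, circles for A2B5_mas and triangles for PSA-NCAM_mas, 1 array each; the grey bar joins the end arrays. Bdnf, Rtn4 and Rtn4r lie far left of their Met_0 square, and L1cam and Spnb4 lie to the right of theirs.

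A2B5_mas and PSA-NCAM_mas were then set against each other, a contrast of brain DNA under the name of a glial and of a neuroblast epitope. The yardstick for array error came from the Met series: the departure of Met_50 from the midpoint of Met_25 and Met_75, over 331 responsive probes (those with Met_100 at least 0.3 above Met_0), put the SD of the difference between a pair of arrays at 0.0326. It also holds any bend of the curve. Over all probes the Met_25 median was 0.541 and the Met_75 median 0.667, against 0.101 in A2B5_mas and 0.0970 in PSA-NCAM_mas. The error at the lower brain levels was not measured, so this SD is only a rough guide there. At 7 of the 8 genes the brain arrays differed by less than this SD. Their differences, A2B5_mas minus PSA-NCAM_mas, were 0.0274 at Pcdh11x, 0.0226 at Gap43, 0.0151 at Bdnf, 0.0128 at Reln, -0.00145 at Adam23, -0.00505 at L1cam and -0.00507 at Ncam1. Spnb4 was the exception, with 0.0955 less in A2B5_mas, 2.92 times that SD. With a size of 0.05 as the limit, 0 of the 8 were higher in A2B5_mas (12% of all probes were) and only Spnb4 was lower (0.785% of all probes, 3 in number). No gene of the set lay close to this limit: the nearest on its outer side was Spnb4 at 0.0955 and on its inner side Pcdh11x at 0.0274. Signs were even, with 4 genes higher in A2B5_mas and 4 lower, while 65.2% of all probes were higher. The median difference of the 8 was 0.00566, beside 0.00429 over all probes, and -0.00145 over the 7 responsive ones.

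Spnb4 had the lowest signed difference of all 382 probes. The next lowest, at Dusp5 (a MAP kinase phosphatase), was 0.0622 less in A2B5_mas. By absolute size Spnb4 ranked 10 of 382. Of the 38 other probes whose mean brain value lay within 0.1 of that of Spnb4, 31 were higher in A2B5_mas and 7 lower, with a median difference of 0.0264 and a range from -0.0380 to 0.109. The direction at Spnb4 was thus opposite to that of most probes at its level. Its own Met arrays were smooth, with Met_50 only 0.0121 off the midpoint of its neighbours, but apart from Met_0 they were at least 0.877 and so gauge no error at brain levels. After quantile normalization of the brain arrays the difference was -0.131, and on the Met curve PSA-NCAM_mas was 3.16 percentage points higher. On the log2(beta / (1 - beta)) scale, which stretches low values, Spnb4 was 0.61 lower in A2B5_mas. It ranked 3 from the lowest and 11 by size. On that scale Pcdh11x was 0.49 and Bdnf 0.42 higher in A2B5_mas, ranks 34 and 49 by size. Markers of cell types on the array were read beside it: Gfap (astrocyte filament) had 0.640 in A2B5_mas against 0.549 in PSA-NCAM_mas, while Camk2a (a neuronal kinase) had 0.0642 and 0.0742, Mbp 0.0549 and 0.0647, Olig2 0.0750 and 0.0735, and Slc1a3 0.234 and 0.237. Ifng, for blood cells, had 0.609 and 0.601, and Ednrb, for endothelium, 0.120 and 0.108. A methylation level at 1 CpG does not show whether a marker is expressed, so the cell identity behind the titles could not be checked, and the part of cell mixture in the difference at Spnb4 was not tested.

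**Figure D3:**
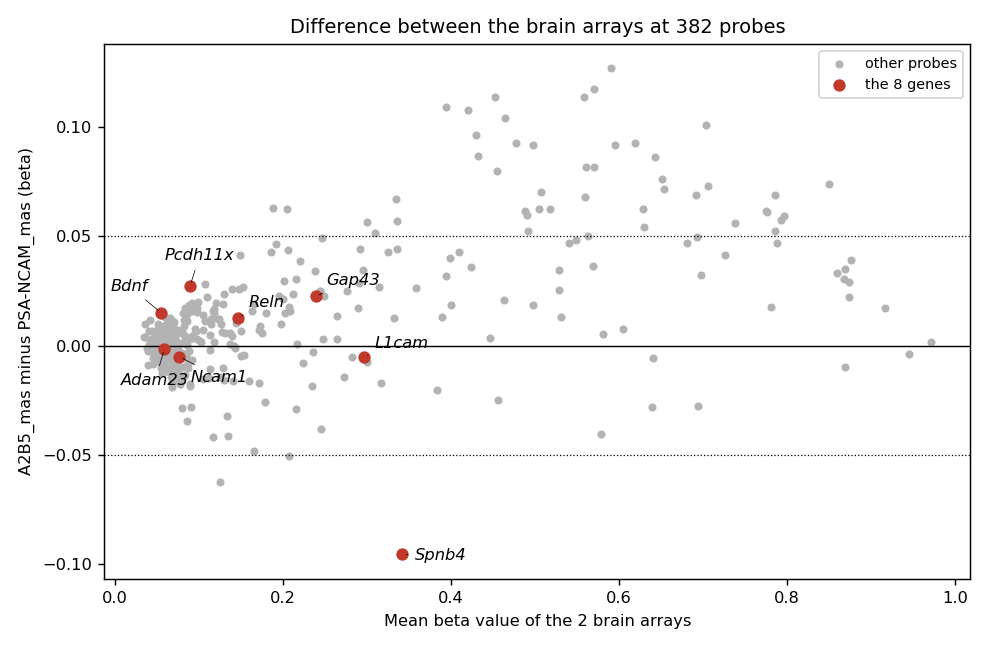
Difference in beta value, A2B5_mas minus PSA-NCAM_mas (vertical axis), against the mean of both (horizontal axis) for all 382 probes, with the 8 genes in red and dotted lines at 0.05 in either direction. The other red points lie within 0.0274 of 0 and Spnb4 lies below all other probes at -0.0955.

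The Met series shows how far each of these probes follows graded DNA. The slope of log2(beta / (1 - beta)) on the title number, per 100, was tested with limma over all probes, with Benjamini-Hochberg adjustment and n = 5 arrays. It was positive for all 8 genes and passed an adjusted p of 0.05 at 6 (Ncam1, L1cam, Reln, Bdnf, Pcdh11x and Spnb4), a share of 75% beside 85.1% of all probes. It was called downward at 0 of the 8 and at 1.05% of all probes. Ncam1 rose by 5.76 ± 1.03 (SE, limma adjusted p = 0.0118) and L1cam by 4.93 ± 1.01 (limma adjusted p = 0.0118). Spnb4 rose by 6.13 ± 1.76 (limma adjusted p = 0.0181) and Pcdh11x by 3.78 ± 1.19 (limma adjusted p = 0.0240). Bdnf and Reln rose less steeply, by 2.53 ± 0.86 and 2.41 ± 0.82 (limma adjusted p = 0.0312 for both). Adam23 had a slope of 3.60 ± 1.46 (limma adjusted p = 0.0536) and Gap43 one of 1.04 ± 0.68 (limma adjusted p = 0.185). These SEs measure the scatter about a straight line, which also holds the bend of each curve. An exact two-sided permutation test over all 120 orders of the arrays, adjusted over all probes, called 5 of the 8 (62.5%) and 87.7% of all probes, with Bdnf at an adjusted p of 0.0544. Reln and Bdnf also missed the threshold when any 1 Met array other than Met_25 was left out, with limma adjusted p from 0.0626 to 0.105 for Reln and from 0.0771 to 0.127 for Bdnf. Without Met_75 the limma test called fewer probes over the whole array, 236 of the 382 (61.8%), and 3 of the 8, with Pcdh11x at an adjusted p of 0.0548, and without Met_100 it called 0 of the 8 and 0 of the 382, with 3 of the 8 and 232 of the 382 at an unadjusted p under 0.05.

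By size, 7 of the 8 genes were responsive, with Met_100 at least 0.3 above Met_0, beside 86.6% of all probes. Gap43 was not, with a difference of 0.163, and the next above the limit was Bdnf with 0.424. Higher at every step of the series were 4 genes (Ncam1, L1cam, Pcdh11x and Spnb4), a share of 50% beside 79.6% of all probes. Reln was 0.0249 lower in Met_75 than in Met_50, Bdnf 0.0452 lower in Met_50 than in Met_25, Gap43 0.0358 lower in Met_25 than in Met_0, and Adam23 0.00329 lower in Met_50 than in Met_25. Steps of Reln and Adam23 in the wrong direction were thus smaller than the SD of 0.0326, and those of Bdnf and Gap43 were slightly larger. Departures of Met_50 from the midpoint of Met_25 and Met_75 were largest at Reln (0.0625) and Bdnf (0.0609). At the other genes of the set they were at most 0.0303 (Ncam1).

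The genes also differed in how early the values came up. At Met_25, Adam23 had reached 96.5% of its difference between Met_0 and Met_100, Spnb4 90.4%, Bdnf 80.7%, Pcdh11x 75.6% and Reln 65.3%. L1cam had reached 49.2% and Ncam1 47.7%. The median over these 7 was 75.6%, beside 59.8% over the 331 responsive probes. Ncam1 gained at least 0.103 at each step, the highest such minimum of the set, while Adam23 was flat within 0.0263 from Met_25 to Met_100. Spnb4 covered 0.0800 from Met_25 to Met_100, and 0.755 between Met_0 and Met_25, the stretch in which its brain values lay.

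**Figure D4:**
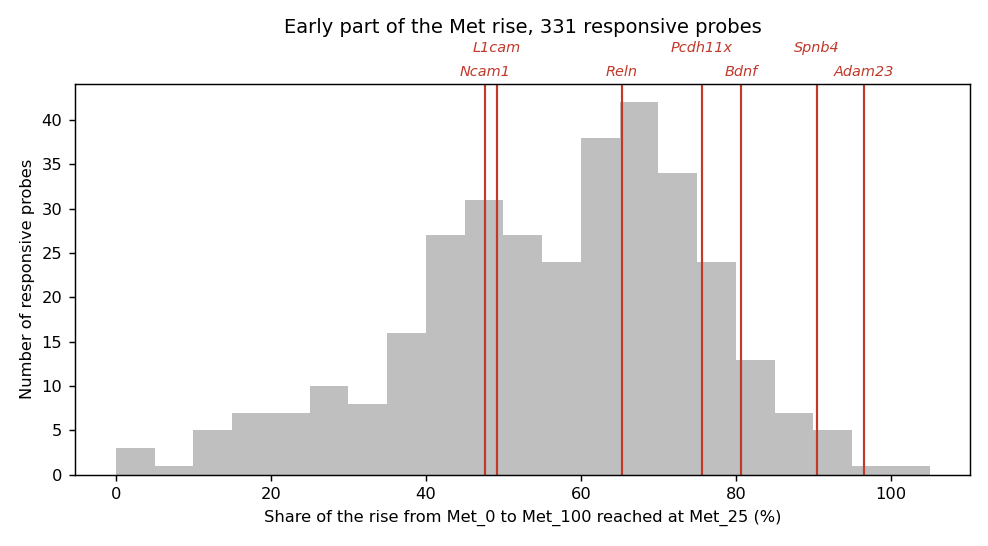
Number of responsive probes (vertical axis, 331 in all) by the share of their rise from Met_0 to Met_100 that was reached at Met_25 (horizontal axis, percent), with red lines for the 7 responsive genes of the set. Ncam1 and L1cam lie at 47.7% and 49.2%, and Spnb4 and Adam23 at the upper end at 90.4% and 96.5%.

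The probes most like each gene, by the root mean square difference in beta value over the 7 arrays, were found among the 374 others. For Ncam1 they were Chrm3 (0.0288) and Ppp2ca (0.0334), for Pcdh11x Grid1 (0.0278) and Tapbp (0.0310), for Adam23 Jag2 (0.0260) and then Ppp3ca, and for Bdnf Npy2r (0.0269) and Grin1 (0.0368). Npy2r, a neuropeptide Y receptor, had 0.471 in Met_0 and 0.0710 and 0.0691 in the brain arrays, so Bdnf was not alone in its high Met_0 value. Reln was nearest to Glra2 (0.0436) and Drd4 (0.0483), L1cam to Gcgr (0.0542) and Gria4 (0.0543), and Gap43 to Crhr1 (0.0589) and Adrb1 (0.0630). Spnb4 had the most distant neighbours of the set, Galr3 at 0.0895 and Tbxa2r at 0.115, and both of these were higher in A2B5_mas than in PSA-NCAM_mas, at 0.347 against 0.304 and 0.476 against 0.389. Within the set the closest pair was Ncam1 and Pcdh11x, 0.0768 apart, and the farthest Gap43 and Spnb4, 0.375 apart.

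Of 81 further genes of these pathways, 8 had a probe: none of the 29 for neural adhesion or the 9 for spectrin and the initial segment, 2 of 3 for reelin signalling, 4 of 24 for axon growth and guidance, and 2 of 16 for neurotrophins. The reelin receptors Lrp8 and Vldlr had 0.0492 and 0.141 in A2B5_mas and 0.0495 and 0.141 in PSA-NCAM_mas, with 0.23 and 0.204 in Met_0. The brain arrays were thus under Met_0 at both receptors, as at their ligand Reln and at 58.1% of all probes. Ngfr, the p75 neurotrophin receptor, had 0.0480 and 0.0363 in the brain arrays and 0.0654 in Met_0, and Sort1 (sortilin, which binds the Bdnf precursor) had 0.0745, 0.0807 and 0.0594. These neurotrophin receptors therefore lacked the high Met_0 value of Bdnf. The myelin-associated inhibitors of axon growth had it: Rtn4 (Nogo) had 0.420 in Met_0 against 0.0781 and 0.0816 in the brain arrays. Its receptor Rtn4r had 0.486 against 0.0744 and 0.0760. Unlike Bdnf, neither was responsive: Met_100 was 0.0993 above Met_0 at Rtn4 and 0.289 above it at Rtn4r. Mag (myelin-associated glycoprotein) had 0.495 in Met_0 and 0.485 in Met_100, with 0.327 and 0.301 in brain, and Mapk8ip1 (a kinase scaffold in axonal transport) had 0.207 in Met_0 and 0.0686 and 0.0705 in brain. In all, 7 of these 8 were under 0.2 in both brain arrays (66% of all probes were), 7 were under Met_0 in both (58.1%), and 2 were under it by at least 0.2 in both (6.81%). The limma slope along the Met series passed the threshold upward at 5 of the 8 (Lrp8, Vldlr, Mapk8ip1, Ngfr and Sort1), beside 85.1% of all probes. Between the brain arrays 0 of the 8 differed by 0.05, where 12% of all probes were higher in A2B5_mas by this size and 0.785% lower. By sign 2 were higher in A2B5_mas and 6 lower, while 65.2% of all probes were higher. The median difference was -0.00094. The largest difference was 0.0266 at Mag, and the largest of the lower genes was 0.00616 at Sort1, both under the SD of 0.0326.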

How the data were processed

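The authors hybridised bisulphite-converted DNA to a custom GoldenGate array and deposited 1 table with 382 rows and 7 arrays, per the labels and the design text. Each array was labelled with Cy3 and Cy5, per the labels; how the authors turned these signals into the deposited beta values is not recorded there. The unit, the methylated fraction, was read from the values, which ran from 0.0282 to 0.972. How background was removed, arrays were scaled and probes filtered is not given in the sources used, nor is the build, and a scaling could change every difference. Probe IDs give a gene symbol and an unexplained number. Of the 8 symbols, 7 are current in RefSeq (GRCm38.p6) and Spnb4 is an older name. The precision is limited by 1 array per title.

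Slopes along the Met arrays were fitted to log2(beta / (1 - beta)) of all probes with limma 3.58.1 (lmFit, eBayes; R 4.3.3) and adjusted by Benjamini-Hochberg. Nothing says that the Met arrays came from separate DNA preparations, so p-values may measure technical spread only. Met curves were made monotone by isotonic regression (scikit-learn 1.9.0). Other values came from Python 3.11.15 (pandas 2.3.3, numpy 2.4.6) and figures from matplotlib 3.10.9. On simulated data for the 382 probes, limma called 96 of 100 probes with a slope of 6, 63 of 100 with a slope of 3, and 2 of 182 with none. The simulation drew independent normal noise about straight lines. The real curves bend and 85.1% of them were called rising, so these rates need not hold for the real data. The members, gene lists, limits and tests were chosen with earlier results of these data known, and the log2 difference of the brain arrays was added after seeing the data. Named genes were the 8 members, the 2 probes nearest to each, the listed pathway genes with a probe and fixed cell type markers, of which 1 is not reported here; Dusp5 was named after its value was seen. Alternatives covered the slope's scale, test and arrays, the size limits, centring, quantile normalization and the Met curve scale.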

Additional observations from a re-analysis of the deposited data

How the results depend on the processing

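Of 34 alternative values for the counts and the median over the 8 genes, 22 stayed within 1.5 times the count, or within 0.0326 for the median. That last yardstick is the SD of a single probe and does not test a median. The 6 genes with a rising Met slope ranged from 0 (without Met_100) to 7 (without Met_25) when 1 Met array was left out. Without Met_75 there were 3. Of all probes, 0% were called rising without Met_100, 89.3% without Met_25 and 61.8% without Met_75. The fit without Met_25 gave every probe the same variance, so its p-values are not comparable. Gap43 passed only without Met_0 (slope 1.55, limma adjusted p = 0.0178) and Adam23 only without Met_25. The 7 responsive genes became 2 (Ncam1 and L1cam) when the rise was taken from Met_25, with the limit scaled to the shorter series. Spnb4, the 1 gene lower in A2B5_mas, left a count of 0 with limits of 0.1 and 0.2 and 0 on the Met curve scale. The 5 genes low in both brain arrays became 3 with a limit of 0.1 and 8 on the Met curve scale. The 1 gene lower than Met_0 became 4 at a size of 0.1. The 1 gene higher than Met_0 became 2 at 0.1, 0 at 0.3 and 0 after quantile normalization of all 7 arrays. For the limits the change follows from the construction. The Met curve scale reads values under Met_0 as 0, as at Gap43. On it L1cam stood at 14.2 and 14.6 percent and Spnb4 at 5.71 and 8.87 percent, all above Met_0 but under the limit for low values. The brain difference of Spnb4 on that scale was 3.16 percentage points, also under its limit. For the left-out arrays and quantile normalization the cause was not tested. The median brain difference turned from 0.00566 to -0.00145 among responsive genes, which leave out Gap43. Signs were even, with 4 genes higher in A2B5_mas and 4 lower. Leaving out any 1 of the higher genes would thus also make the median negative. No paired analysis was possible because each title has 1 array.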
